A study of Talpa occidentalis with 2 samples.

Results

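Globins are the heme proteins that bind oxygen, and 10 globin gene symbols were looked up in the gene annotation of the Iberian mole, Talpa occidentalis, deposited for genome build talOcc3. The symbols were HBZ, HBM, HBA1 and HBQ1 of the alpha-globin group, HBE1, HBD and HBB of the beta-globin group, and MB, CYGB and NGB, which lie outside both groups in other mammals. Members were taken by name, as every model whose identifier without its copy or low-confidence suffix is one of these symbols. This gave 6 models of 5 symbols, of 23336 models and 16075 symbols in all. HBE1, MB, CYGB and NGB had 1 model each and HBD had 2, while HBA1, HBZ, HBM, HBQ1 and HBB had 0 models of that name in the annotation analysed here. No member model was marked as low confidence.

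The series itself profiled chromatin contacts of the FGF9 transcription start by 4C-seq, a method that captures the DNA fragments lying near a chosen viewpoint. It holds 1 library of hindlimb and 1 of forebrain, both from wild-type embryos of embryonic day 15 with the same viewpoint. Contact values of these libraries were not analysed here, their depth is unknown, and the annotation has no column for either tissue. None of the globin models shared a scaffold with FGF9 (0 of 6). All values below describe 1 annotated genome, so no replicate error exists and no test was made.

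Hemoglobin is a tetramer of alpha-type and beta-type chains. In mammals each type is encoded by a cluster of short genes, in which embryonic genes are followed along the chromosome by adult ones. A distant upstream control region drives each cluster in red cells. A canonical vertebrate globin gene has 3 coding exons, with the intron on the upstream side cutting a codon after the second base (phase 2) and the downstream intron falling between codons (phase 0). Myoglobin stores oxygen in muscle, cytoglobin is made in fibroblast-like cells of many tissues, and neuroglobin is made in neurons and retina.

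The beta-globin models formed a compact cluster on scaffold 18. In order of position these were HBE1 at 41552901 to 41555593, HBD_copy2 at 41567618 to 41568821, and HBD at 41575692 to 41576912. HBE1 encodes the epsilon chain of embryonic hemoglobin, and HBD the delta chain, a minor adult chain in human. All 3 lay on the plus strand, so transcription ran from HBE1 towards HBD. The cluster spanned 24.0 kb, or 15.9 kb with HBD_copy2 as its only HBD model, and 0 other models lay inside it. Globin models took up 21.3% of that span, and their coding exons 6.25%.

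Spacing within the cluster was uneven. HBE1 and HBD_copy2 were 12024 bases apart between their edges, and HBD_copy2 and HBD were 6870 bases apart. Measured between the 5′ ends, the distances were 14.7 kb and 8.07 kb. Gaps at least as long as these made up 57.1% and 69.5% of the 20408 gaps between neighbouring models in the annotation, whose median was 16.3 kb. In human, the embryonic gene also stands upstream of the delta gene, with the fetal gamma genes HBG1 and HBG2 and the pseudogene HBBP1 between them and the adult gene HBB after them. None of HBG1, HBG2, HBBP1 and HBB had a model under its name in the mole annotation.

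The 2 HBD models had the same coding structure. HBD_copy2 had coding exons of 92, 223 and 129 bases, at 41567618 to 41567709, 41567824 to 41568046 and 41568693 to 41568821. HBD had coding exons of the same 3 lengths, at 41575692 to 41575783, 41575898 to 41576120 and 41576784 to 41576912. The coding length was 444 bases, or 148 codons, in each. The upstream intron measured 114 bases in both models and was in phase 2. The downstream intron was in phase 0 and measured 646 bases in HBD_copy2 and 663 bases in HBD, a difference of 17 bases. The models thus differed in the length of an intron and in none of the exon lengths.

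Their match to the naming target was also equal. The authors assigned both models the score 470, and in both the match covered bases 196 to 637 of an HBD transcript and the first 442 of 444 coding bases of the model. The annotation records a match to 1 target for each model, so how either would score against an HBB transcript was not tested. Models with at least 3 coding exons of equal lengths on 1 strand within 100 kb of each other occurred for 6 symbols, 0.0373% of 16075. HBD was 1 of them by construction, since the rule restates traits of the HBD pair given above, as does the equal score asked for below. Only symbols with at least 2 models, 2348 of the 16075, could meet this rule. In 3 of these 6 symbols the scores were equal too, HBD, MRPS36 and MYL12B, the last 2 named after their values were seen. Having at least 2 models of any kind was common, with 14.6% of symbols, and among the 5 globin symbols with a model it held for HBD.

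HBE1 had a longer model. It held 4 coding exons of 41, 219, 223 and 129 bases, at 41552901 to 41552941, 41554061 to 41554279, 41554401 to 41554623 and 41555465 to 41555593. Its last 2 coding exons had the same lengths as the last 2 of both HBD models. The coding length was 612 bases, or 204 codons, which is 168 bases more than HBD. Its exon of 219 bases was 127 bases longer than the exon of 92 bases that opens HBD, and the exon of 41 bases had no counterpart there.

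The additional exon of HBE1 lay outside the part matched to the target. The match ran from base 57 to base 612 of the model and covered 551 bases of an HBE1 transcript, with a score of 566. It took in 0 of 41 bases of coding exon 1, 204 of 219 bases of exon 2, and all of exons 3 and 4. It left out 56 coding bases, fewer than the 168 by which HBE1 exceeded HBD, so some of that additional length was matched. Whether the matched part of the target is coding was not tested. The introns measured 1119, 121 and 841 bases and were in phases 2, 2 and 0. The pair of introns around the exon of 223 bases therefore had the phases of the HBD introns, and in all 3 beta-globin models the intron before that exon was the shorter of the pair.

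**Figure D1:**
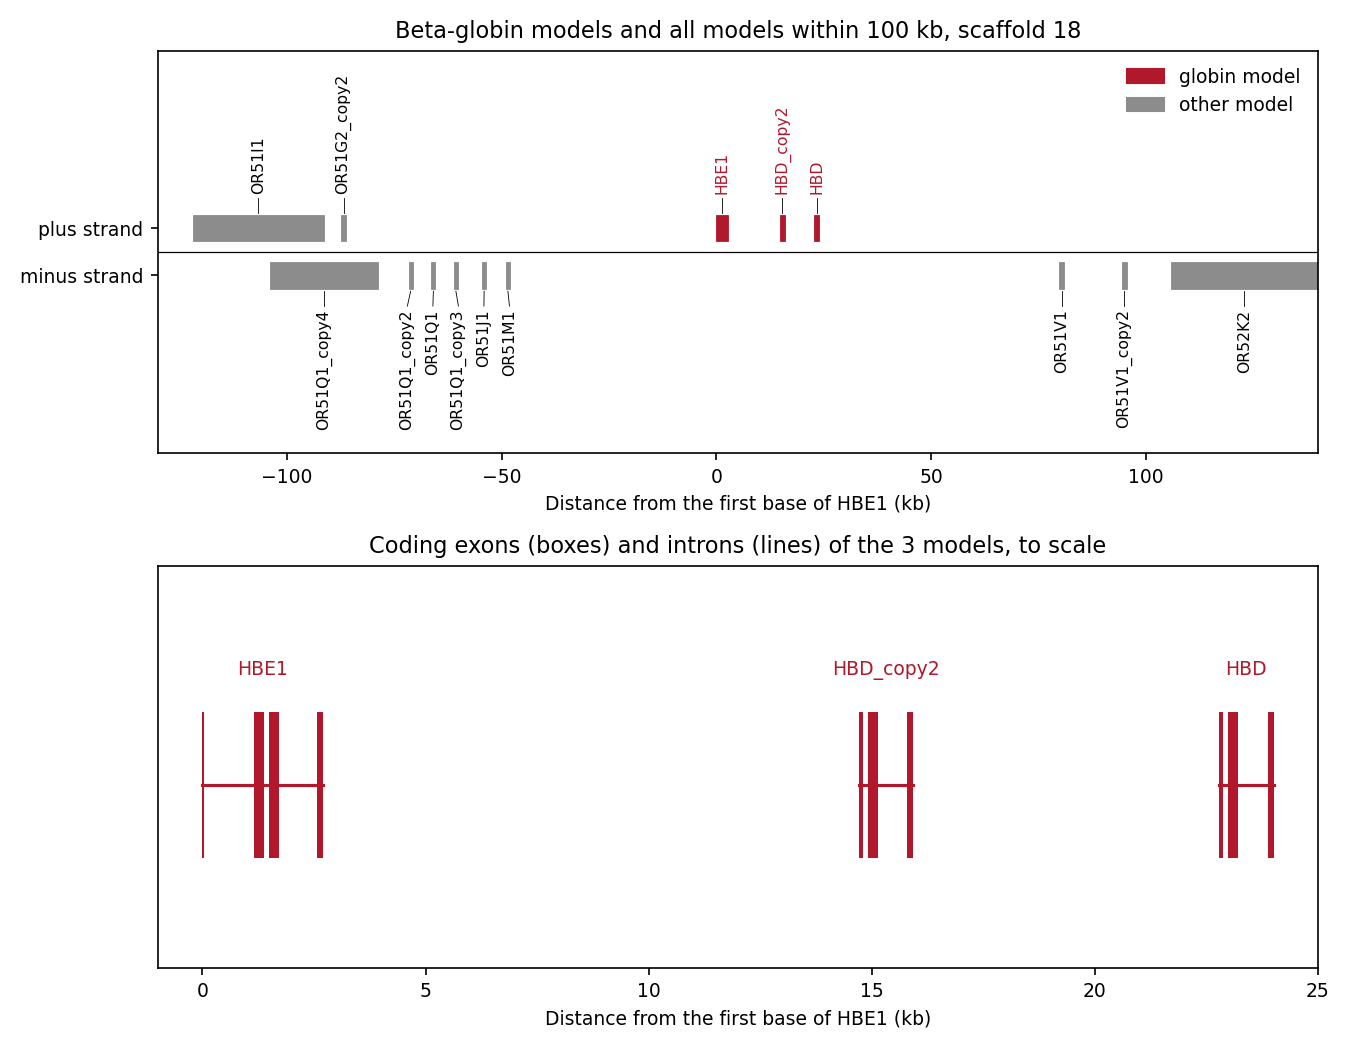
Upper panel: models by strand on scaffold 18, with distance from the first base of HBE1 in kb on the x axis; red boxes are globin models and gray boxes other models within 100 kb, and OR52K2 runs past the right edge. Lower panel: the 3 globin models on the same kind of axis, with coding exons as boxes and introns as lines; the cluster spans 24.0 kb and holds 3 coding exons in both HBD models and 4 in HBE1.

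Olfactory receptor models bordered the beta-globin cluster on both sides. Of 11 other models within 100 kb, 10 carried names of the OR51 family and 1, OR52K2, of the OR52 family, and 8 had a single coding exon. On the HBE1 side, the nearest was OR51M1 at 41503902 to 41504891 on the minus strand, 48.0 kb from HBE1. It was followed by OR51J1 at 53.6 kb, then by OR51Q1_copy3, OR51Q1, OR51Q1_copy2 and OR51Q1_copy4 at 60.1, 65.4, 70.7 and 78.7 kb, OR51G2_copy2 at 86.3 kb and OR51I1 at 91.4 kb. On the HBD side, the nearest was OR51V1 at 41632771 to 41633784 on the minus strand, 55.9 kb from HBD, with OR51V1_copy2 at 70.5 kb and OR52K2 at 81.9 kb. Receptor models on the minus strand faced the globins on both sides, and within 100 kb both strands occurred on the HBE1 side and the minus strand alone on the HBD side.

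The stretch from OR51M1 to OR51V1 measured 128 kb and held the 3 globin models only. In human, the upstream control region of the cluster lies on the side of the embryonic gene, between HBE1 and the receptors. The mole gap on that side, from 41504892 to 41552900, was equalled or exceeded by 26.9% of all gaps, and the gap beyond HBD by 24.1%. Both exceeded the median gap of the annotation.

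Several genes that flank the cluster in human were found at their places further out. UBQLNL, a ubiquilin-like gene, lay 144 kb below HBE1, and TRIM6, a tripartite motif gene, lay 196 kb below it. On the other side were RRM1, which encodes a subunit of ribonucleotide reductase, at 668 kb, and STIM1, a calcium sensor of the endoplasmic reticulum, at 705 kb. TRIM5, another listed flank, had 11 models, of which 0 lay on scaffold 18. In all, 40 of 41 OR51 and OR52 models of the annotation lay on scaffold 18, and 39 lay within 1 Mb of the cluster. Within 1 Mb of the HBE1 start there were 76 other gene starts, against a median of 25 for all models.

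No alpha-globin member had a model. HBZ encodes the embryonic zeta chain, HBA1 an adult alpha chain, and HBM and HBQ1 encode the mu and theta chains, whose proteins are scarcely found in red cells. None of the 4 had a model by name, and 0 transcripts of the annotation were matched to a target of those names. HBA2, the other adult alpha gene, had 0 models as well. Whether these genes are missing from the assembled sequence, lack an annotation or are not analysed here cannot be told apart. In human the cluster lies between NPRL3 and LUC7L in the order HBZ, HBM, HBA2, HBA1 and HBQ1, and its upstream enhancers lie inside introns of NPRL3, a regulator of nutrient signalling.

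The flanks of the alpha-globin cluster were present in part. On scaffold 17, NPRL3 lay at 53460204 to 53462629 on the plus strand with 4 coding exons. MPG, a DNA repair glycosylase, overlapped it on the minus strand at 53461962 to 53475102, followed by RHBDF1 at 53471437 to 53477553 and SNRNP25 at 53477953 to 53479747. On the other side of NPRL3, the nearest model was AXIN1, a scaffold protein of WNT signalling, at 53401490 to 53405478 on the plus strand. Of 12 listed flanking symbols of this cluster, 5 had a model, and those without were POLR3K, LUC7L, FAM234A with its older symbol ITFG3, RGS11, ARHGDIG and PDIA2.

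Between AXIN1 and NPRL3 lay 54.7 kb, from 53405479 to 53460203, with 0 models. The stretch was measured between model edges, and whether either model holds all exons of its gene was not tested. Gaps as long or longer made up 24.5% of all gaps, so about as many gaps reached this length as reached that beyond HBD. A RefSeq table for a later build of the genome of this species, MPIMG_talOcc4v2.1, lists 10 genes between AXIN1 and NPRL3, of which 9 are protein-coding and 1 is a pseudogene. In order from AXIN1 these were PDIA2, ARHGDIG, FAM234A, LUC7L, HBQ1, LOC119240249, LOC119240250, HBM, LOC119240253 and the pseudogene LOC119240254. The 6 with a symbol had 0 deposited models among them.

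Read from the NPRL3 side, the later build thus placed HBM before HBQ1 and HBQ1 next to LUC7L, as in human. Between HBM and HBQ1, where human has the adult alpha genes, stood LOC119240250 and LOC119240249. The table gives these IDs no globin name, so they are not assigned to HBA1 or HBZ here. Of the 10 members, 6 were listed in the later build by symbol, and 2 of these 6, HBM and HBQ1, had no deposited model, against 12.5% of 15999 protein-coding symbols of that build. HBA1, HBZ and HBB were among neither the deposited symbols nor those of the later build.

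Few deposited neighbours had as many genes of the later build between them. Among 8527 pairs of neighbouring models whose symbols occur once in both tables and lie within 2 Mb in the later build, 7649 had 0 protein-coding genes between them and 6 had 9 or more protein-coding ones, the pair AXIN1 and NPRL3 included. NPRL3 ended 35.4 kb before the last annotated base of scaffold 17. In the later build, POLR3K was the last gene of its sequence, as far as sequence ends can be read from the order of positions.

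**Figure D2:**
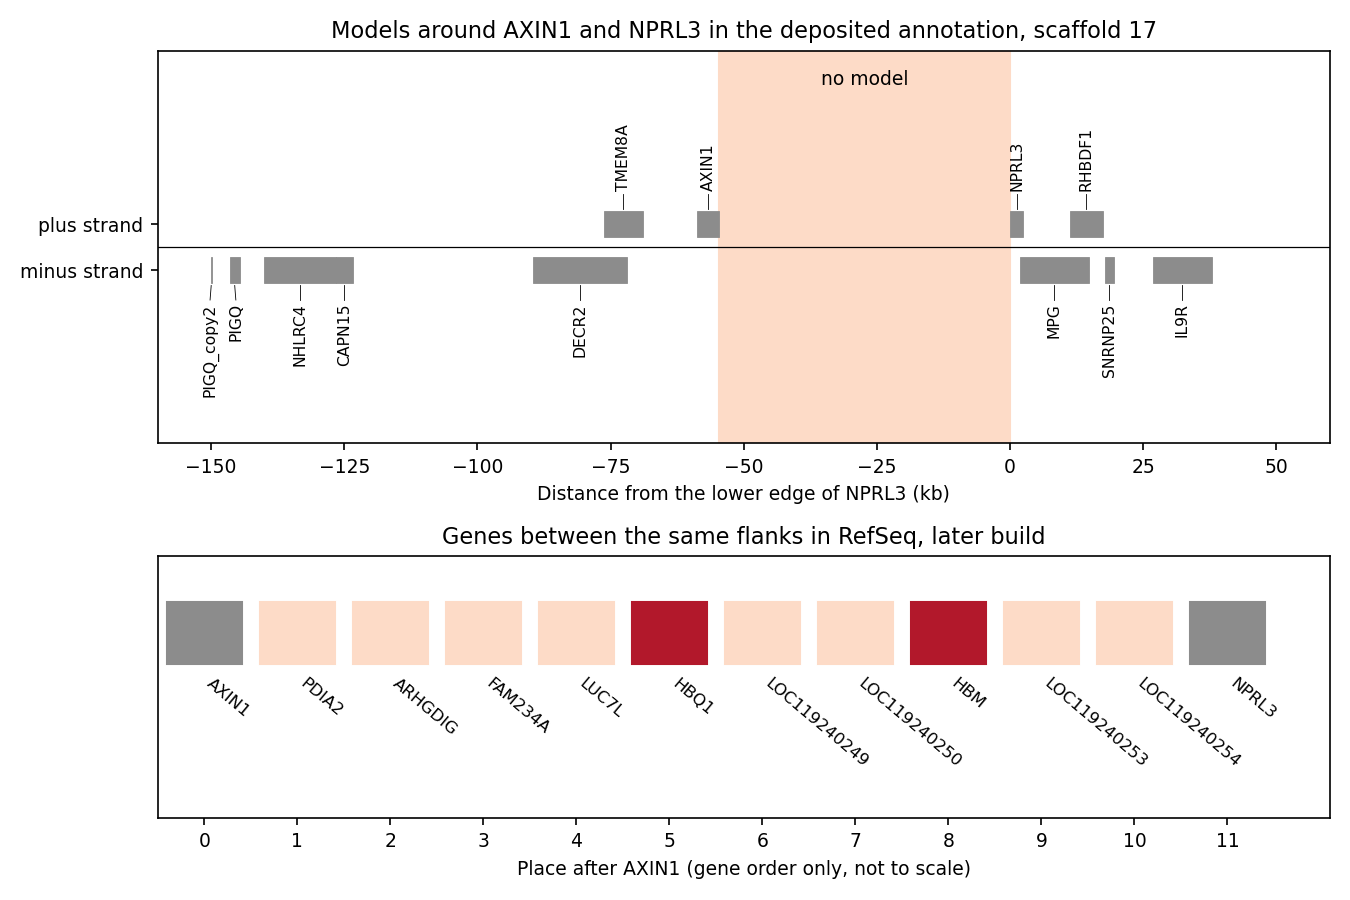
Upper panel: models by strand on scaffold 17, with distance from the lower edge of NPRL3 in kb on the x axis; the shaded stretch of 54.7 kb between AXIN1 and NPRL3 holds 0 models. Lower panel: gene order between the same flanks in the later build, by place and not to scale; red boxes are HBQ1 and HBM, pale boxes the other 8 genes between, and gray boxes the flanks.

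At the beta-globin locus, the later build listed HBE1 by symbol. The next 4 genes were the pseudogene LOC119254987 and the protein-coding genes LOC119254650, LOC119254651 and LOC119254652. The deposited annotation had HBD_copy2 and HBD after HBE1. Whether these are the same genes cannot be read from symbols. The later build had 0 symbols that start with OR51 or OR52, and no HBD symbol. Since the 6 nearest deposited symbols around HBE1 were HBD and 5 receptor names, 0 of 6 were shared between the tables.

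MB, CYGB and NGB each had 1 model on a scaffold of their own. These models did not share the exon pattern of the HBD models. Over all members, 4 of 6 models had exactly 3 coding exons, against 6.92% of all models, and 2 of 6, the HBD pair, had 3 coding exons with phases 2 and 0, against 0.647%. EVM was the recorded source of all 6, against 64.2% of all models. The coding length was divisible by 3 in 6 of 6, against 87.8% of all models. The recorded phases equalled those computed from exon lengths in 6 of 6, against 71.6% of all models. Any model without a recorded phase was counted as unequal in that share.

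The MB model occupied 38867741 to 38873818 of scaffold 19, minus strand. In order of transcription, its coding exons measured 71 bases at 38873748 to 38873818, 102 bases at 38872364 to 38872465 and 358 bases at 38867741 to 38868098. The introns measured 1282 and 4265 bases and were both in phase 2. Of 531 coding bases, 328 (61.8%) were matched to an MB transcript, with a score of 420. The match left out the first 135 coding bases, which take in all of coding exon 1, and the last 68. The downstream intron of MB was the longest intron of any globin model.

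The CYGB model occupied 22351413 to 22352773 of scaffold 28, minus strand. Its coding exons measured 180 bases at 22352594 to 22352773, 164 bases at 22352101 to 22352264 and 505 bases at 22351413 to 22351917. The introns measured 329 and 183 bases, in phases 0 and 2. With 849 coding bases, or 283 codons, it was the longest coding model of the 6, but 354 bases (41.7%) were matched to a CYGB transcript, with a score of 530. The matched bases lay within the last coding exon, and 0 of 344 bases of the exons before it were matched.

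The NGB model occupied 13338322 to 13339259 of scaffold 29, plus strand. It had 2 coding exons, of 132 bases at 13338322 to 13338453 and of 207 bases at 13339053 to 13339259, parted by an intron of 599 bases in phase 0. Human NGB has more introns than this model, among them the canonical pair and an additional central intron in phase 0. The mole model had 339 coding bases, or 113 codons, the fewest of the 6. Of these, 241 (71.1%) were matched to an NGB transcript, with a score of 345, 115 of them in coding exon 1 and 126 in exon 2.

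The matched share of the coding length was higher in each beta-globin model than in any of the others. It was 99.5% in both HBD models and 90.8% in HBE1, against 61.8% in MB, 41.7% in CYGB and 71.1% in NGB. The median over 21473 models with a recorded match was 96.6%. Whether the matched part of a target is coding was not tested for any model. Models matched over a smaller share than MB, CYGB and NGB made up 12.6%, 4.92% and 17.8% of these. The MB and CYGB models have 3 coding exons each without the canonical intron phases, and their coding exon 1 held 0 matched bases. Their exon numbers were not compared with those of MB and CYGB in other mammals. In CYGB, coding exon 2 held 0 matched bases as well, so its exon number does not describe the matched part.

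**Figure D3:**
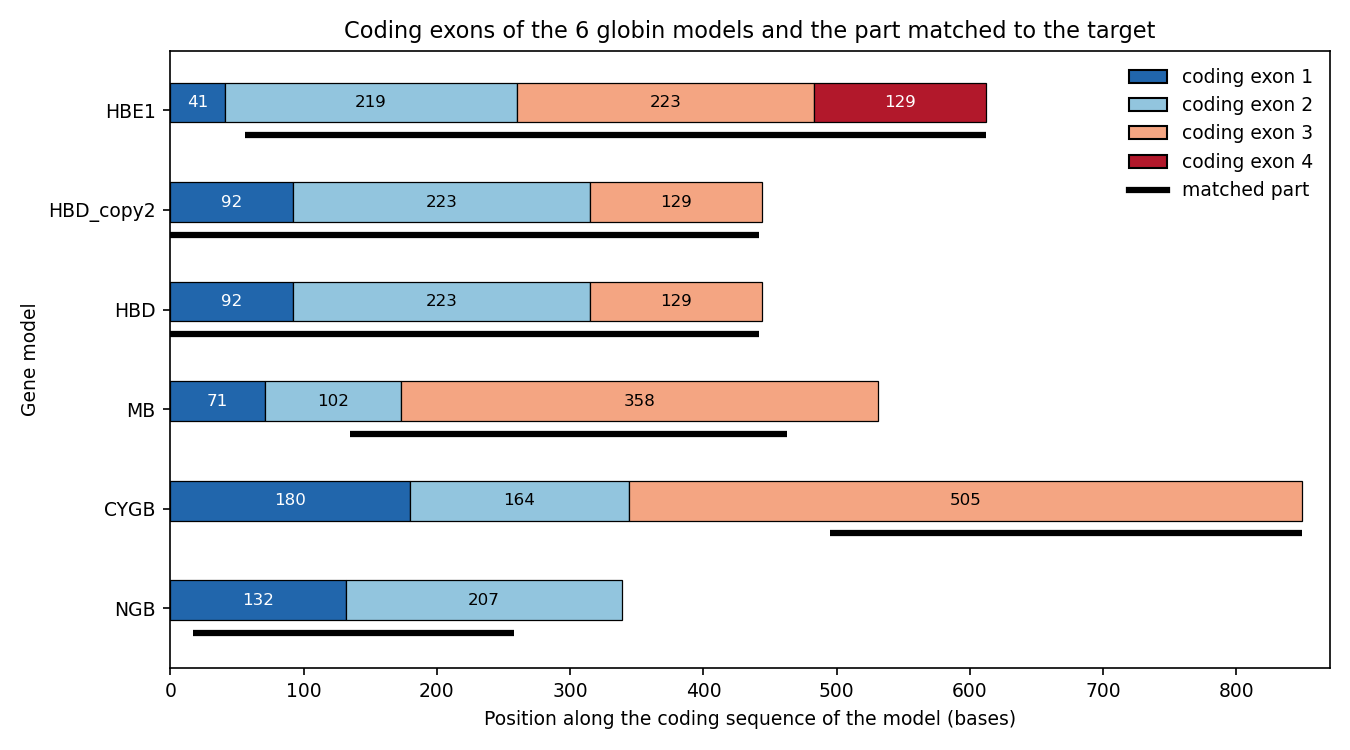
Coding exons of the 6 globin models joined end to end, with position along the coding sequence in bases on the x axis; colours give the exon number, figures the exon length in bases, and the black bar the part matched to the target. The HBD models share exons of 92, 223 and 129 bases, and in CYGB the matched part lies in the last exon only.

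Most listed human flanks of the 3 unclustered globins lay near them in the mole annotation. MB stood between RASD2, a small GTPase gene, 35.3 kb away at 38828343 to 38832470, and APOL5, an apolipoprotein L gene, 21.7 kb away at 38895566 to 38906479. RBFOX2, which encodes a splicing regulator, followed at 46.0 kb, and these 3 were all models within 100 kb. Just outside lay MCM5, a replicative helicase gene, at 102 kb and the heme oxygenase gene HMOX1 at 118 kb. Of 7 listed flanking symbols, 6 lay on this scaffold within 186 kb, and APOL6 had no model.

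CYGB had 9 models within 100 kb. PRCD, a gene of photoreceptor discs, was the nearest at 6.72 kb, and ST6GALNAC2_copy2 and ST6GALNAC2_copy3, models of a sialyltransferase, followed on the same side at 25.7 and 30.1 kb. On the other side lay RHBDF2, an inactive rhomboid protease gene, at 30.6 kb and AANAT, the penultimate enzyme of melatonin synthesis, at 41.1 kb. UBE2O and SPHK1 lay at 83.2 and 97.9 kb on that side. ST6GALNAC1 and, inside its bounds, a single-exon RPS27_copy4 lay at 62.4 and 71.4 kb on the PRCD side. Of 8 listed flanking symbols, 7 were on this scaffold, and SNHG16 had no model. ST6GALNAC2 was counted by its copies, since the model without a suffix lay on scaffold 9, with 1 coding exon. RPS27_copy4 is not a listed flank.

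NGB stood between POMT2, an O-mannosyltransferase gene, 7.97 kb away at 13289386 to 13330353, and TMEM63C, a membrane channel family gene, 16.6 kb away at 13355877 to 13382168. GSTZ1, TMED8 and SAMD15 lay at 51.9, 74.5 and 99.1 kb on the POMT2 side, and these 5 were all models within 100 kb. All 8 listed flanking symbols were on this scaffold within 128 kb. None of the 28 models within 100 kb of any globin model overlapped it.

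**Figure D4:**
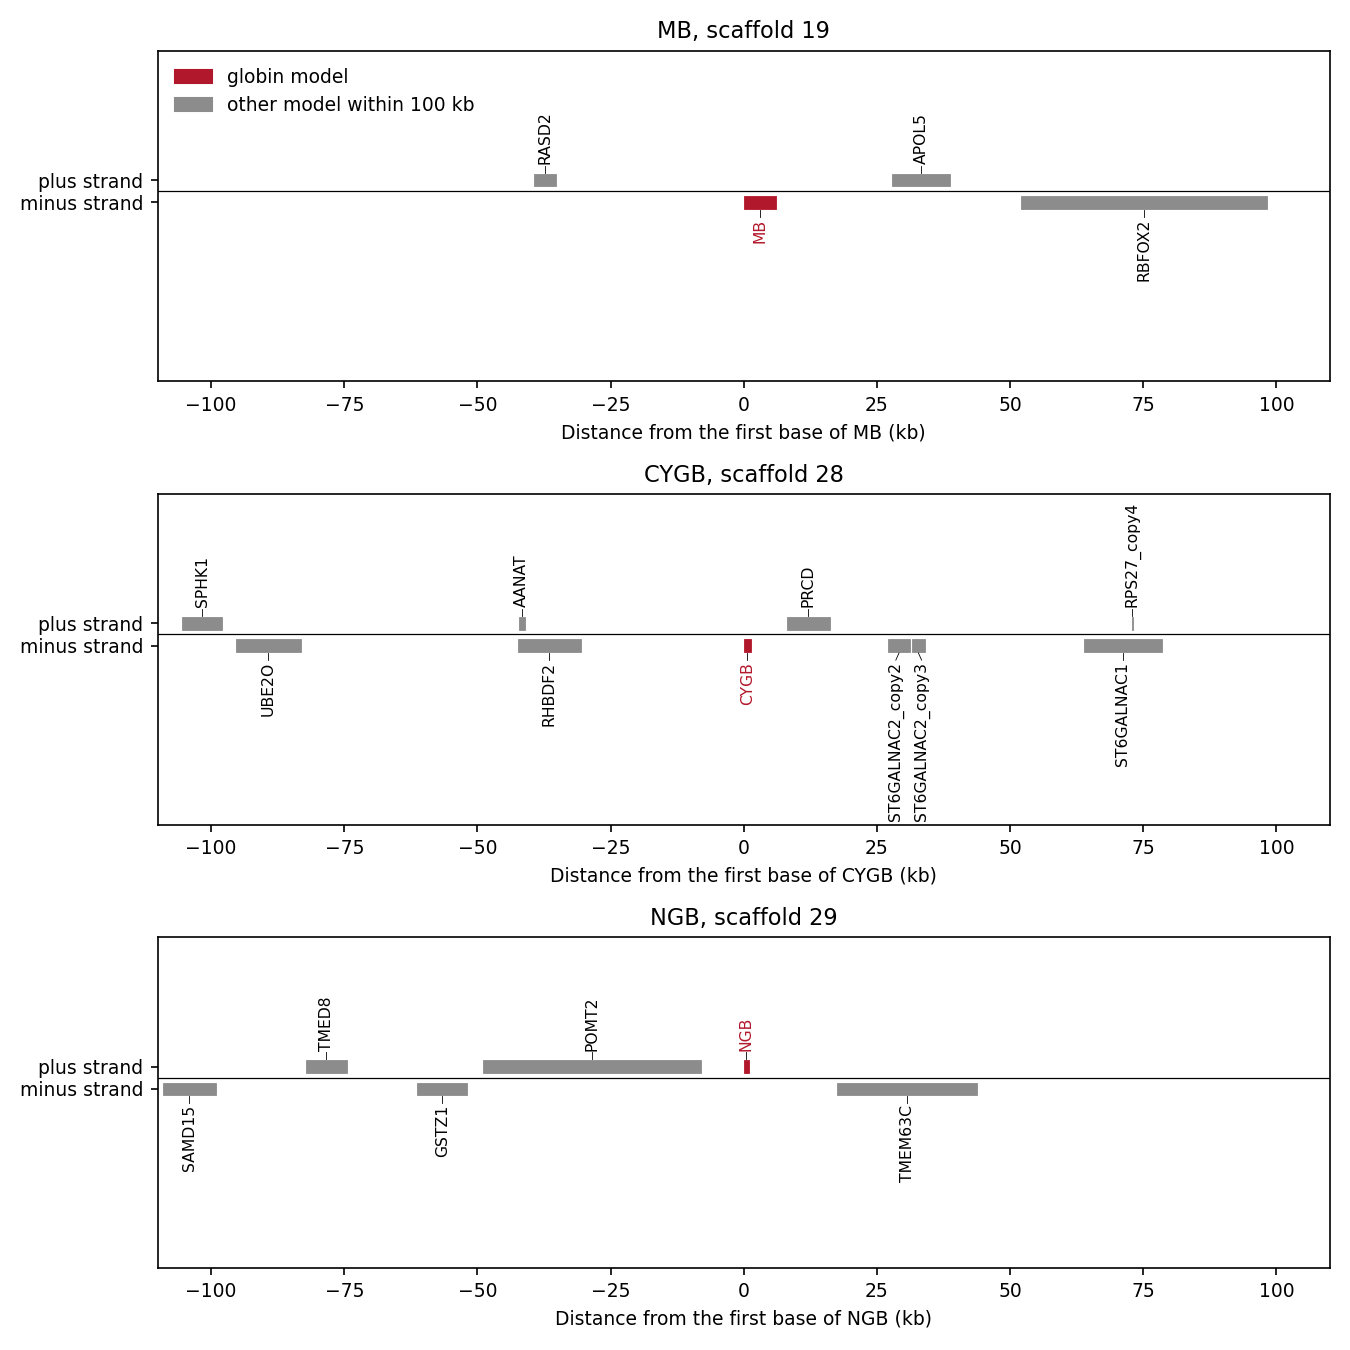
Models by strand around MB, CYGB and NGB, with distance from the first base of the globin in kb on the x axis; red boxes are the globin models and gray boxes the 3, 9 and 5 other models within 100 kb. NGB and POMT2, 7.97 kb apart, lie on the same strand, and CYGB has PRCD at 6.72 kb on the opposite strand.

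Most near neighbours of these loci were also near them in the later build. Of the 6 nearest deposited symbols, 3 on each side, 6 were shared for NGB, 5 for CYGB and 4 for MB. Those not among the nearest 6 of the later build were PRCD for CYGB and APOL5 and APOL2 for MB. PRCD is not listed in the later build by symbol, so it could not be shared. Genes of the later build named only by a LOC number were skipped, among them the nearest protein-coding gene on a side of MB and of CYGB. A symbol not shared is thus no sign of a changed gene order. With HBE1 included, 15 of 24 symbols (62.5%) were shared. The 6 around HBE1, which were HBD and receptor names, are not listed in the later build by symbol and could not be shared. The number of other gene starts within 1 Mb differed among the loci, with 77 for CYGB and 26 each for MB and NGB, against a median of 25 over all models.

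Distances between globin models and their neighbours varied by locus. The shortest were 6.72 kb from CYGB to PRCD and 6.87 kb within the HBD pair, and the longest was 55.9 kb from HBD to OR51V1. Gaps as long or longer made up between 24.1% and 69.9% of all gaps for the 10 gaps that touch a globin model.

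**Figure D5:**
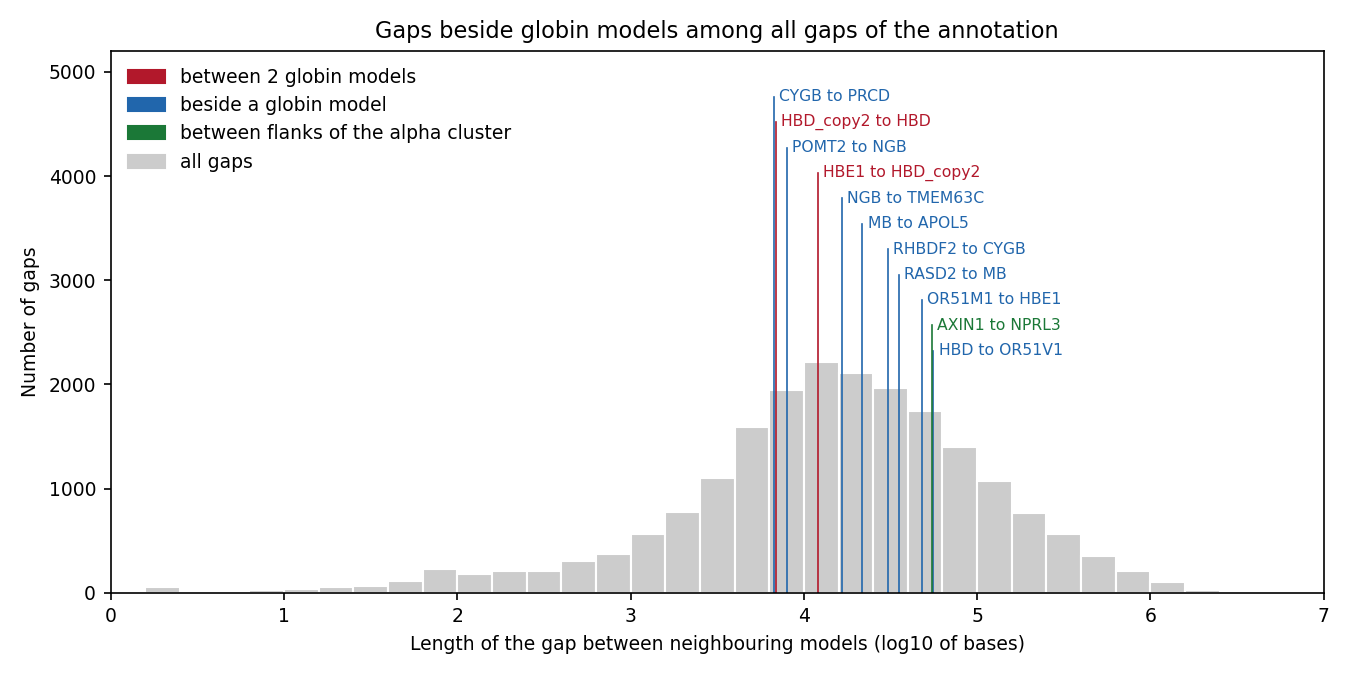
Number of gaps between neighbouring models (y axis) by length on a log10 scale of bases (x axis), for all 20408 gaps in gray bars; vertical lines mark the 2 gaps between globin models in red, the 8 other gaps that touch a globin model in blue, and the gap from AXIN1 to NPRL3 in green. The marked gaps lie between 6.72 kb and 55.9 kb, around the median of 16.3 kb; the height of a line has no meaning.

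Of 9 heme synthesis symbols, 9 had a model, against 87.5% of the protein-coding symbols of the later build. So near that share, the count is no result about the list. Among the 9 was ALAS2, the erythroid enzyme of the opening step, with 11 coding exons on scaffold 50. FECH, which inserts iron into the ring, had 3 models, among them a multi-exon model of 11 coding exons on scaffold 7. FECH_copy3 at 71507989 to 71508286 and FECH_copy2 at 71508287 to 71509209 adjoined each other on the minus strand of scaffold 1, with 1 coding exon each. Whether FECH_copy2 and FECH_copy3 are parts of 1 copy was not tested. The other 8 symbols had 1 model each.

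Of 17 symbols of globin regulators and partners, 16 had exactly 1 model, against 76.2% of the protein-coding symbols of the later build, and 1 had none, against 12.5%. HP and CD163, with 1 model each, are not listed in the later build by symbol, so those shares do not cover them. The symbols with a model included the erythroid transcription factors GATA1 with 5 coding exons, KLF1 with 4, TAL1 with 3 and NFE2 with 2. Also among them was BCL11A, a repressor of fetal globin genes in human, with 2. AHSP, the chaperone of free alpha chains, had a model of 4 coding exons and 441 coding bases at 35881480 to 35882417 on scaffold 17, the scaffold that carries AXIN1 and NPRL3. HPX, the plasma protein that binds free heme, had no model under its name and is listed in the later build.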

How the data were processed

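The 2 libraries, hindlimb and forebrain, have no value in the file used. The deposited annotation of build talOcc3 holds positions of gene, transcript, exon and coding records, counted from 1, and a score per transcript that the authors assigned to its match with a named target. Neither the formula of that score nor a filter on models is stated by the labels or the annotation. The submitters' processing notes name BWA, whose output was not used here.

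Models were read with Python 3.11.15 and drawn with matplotlib 3.10.9. Exon records equalled coding records in all 23336 models, each with 1 transcript, so no untranslated part was read and lengths are coding lengths. Intron phase is the remainder of the coding length before the intron after division by 3. A gap is a stretch between merged neighbouring models. Later-build genes were matched by exact symbol in a RefSeq table of 31603 genes, whose positions served for order only. The members, lists and rules were chosen with earlier results of these data known. The text names all members, all models within 100 kb of them, and examples of the listed flanks, heme and regulator genes, some of which are not reported here. The reader recovered the exon and intron lengths of 200 of 200 simulated models.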

Additional observations from a re-analysis of the deposited data

How the results depend on the processing

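Of 18 alternatives, 12 kept the value within 1.5 times for counts, within the 95% Wilson interval for shares, or unchanged for lengths. The number of globin models was 6 and that of symbols 5 in each of their alternatives, which says little, since no member is marked as low confidence, under 300 coding bases or overlaps another. With 1 model per symbol, the beta-globin span stayed at 24.0 kb with HBD kept and was 15.9 kb with HBD_copy2 kept, by construction. Keeping the highest score of each symbol left 3 models with 3 coding exons in place of 4, by construction, since both HBD models have 3 and 1 was dropped. The HBD scores tie, and the model without a suffix was kept. The median gap within the beta-globin cluster was 9.45 kb between edges and 11.4 kb between 5′ ends, by construction. Other models near globins numbered 11 within 50 kb and 55 within 200 kb, against 28 within 100 kb, by construction. The share of all models with 3 coding exons was 7.29% on scaffolds of at least 1 Mb, and that of symbols with at least 2 models 12.7% with at least 300 coding bases. For both shares, the cause was not tested. Finding symbols by their target transcript and keeping HBD_copy2 were chosen after seeing the data. Alternatives for the span and gap of the alpha-globin cluster gave no value, since it had no model. No paired analysis was possible because no result comes from a test between samples. Precision is limited by the assembly and its models, which no depth measure here describes.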

Other observations

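Androglobin, a large protein of testis with a rearranged globin domain, had 1 model, ADGB, on the plus strand of scaffold 7 at 69727368 to 69829387, with 36 coding exons and 4998 coding bases. It was the only other globin-family name with a model among HBA2, HBG1, HBG2, HBBP1, HBZP1 and ADGB.

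The annotation was also searched by structure, a search chosen after seeing the data. Coding exons of 92, 223 and 129 bases in this order occurred in 2 models, HBD and HBD_copy2, and last coding exons of 223 and 129 bases in 3, these and HBE1. Models with 3 coding exons, phases 2 and 0 and a coding length between 424 and 464 bases, within 20 bases of HBD, numbered 9, and a narrower range tried earlier left out YPEL2. Besides the HBD pair these were C7orf49, GADD45A, MCFD2, RPS19_copy4, SLC9A9_copy3, TMEM92 and YPEL2, which carry names of other gene families and whose exon lengths differed from those of the HBD pair.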
